A study of Mus musculus with 12 samples.

Results

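The oxidative phosphorylation genes of the mouse lens were examined by RNA-seq in *Trpm3*-mutant and *Trpm3*-deficient animals. They were chosen by name: protein-coding genes whose symbols begin with mt-, the *Nduf* genes of the a, b, c, s and v series, *Sdha* to *Sdhd*, the *Uqcr* genes and *Cyc1*, *Cox4* to *Cox8*, and *Atp5*. This rule used no measured value and found 101 of the 55487 genes in the table, of which 13 are encoded by the mitochondrial genome and 88 by the nucleus. The nuclear members comprised 38 genes of complex I, 4 of complex II, 9 of complex III, 19 of complex IV and 18 of complex V. *Ndufa4*, which is known to be associated with complex IV, was kept with complex I by its symbol.

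From each of 4 genotypes, 3 libraries were compared (12 in all), all prepared from whole lenses at 7 days of age. Wild-type lenses were set beside lenses with *Trpm3* knocked out (*Trpm3*-KO, an allele made by homologous recombination and recovered from archived embryos) and lenses heterozygous (*Trpm3*-I/M) or homozygous (*Trpm3*-M/M) for an isoleucine-to-methionine substitution introduced with CRISPR/Cas9 in the TRPM3 cation channel, written KO, I/M and M/M below. Both alleles are germline changes present in every cell of the animal, and per the study's methods each library pooled lenses of both sexes, so that the spread between libraries is the spread between pools. The values of I/M replicate 3 go against a mixed pool: *Xist*, transcribed from the inactive X chromosome, was at 0.0721 CPM there against 45.8 to 305 CPM in the other 11 libraries (CPM, counts scaled to a common library size), and 4 Y-linked genes were at their highest, such as *Ddx3y* at 27.2 against 10.8 to 21.1 CPM. Per library, 56162169 to 82090198 reads were counted to genes. *Trpm3* itself was counted at 251 to 285 CPM in wild-type, 89.9 to 99.8 in KO, 370 to 413 in I/M and 469 to 484 in M/M lenses, with no overlap between wild-type and any other genotype. The study proposes that *Trpm3* transcripts interrupted by an inserted reporter cassette remain in KO lenses. Its antibody staining for the channel, at a later age, was absent from the KO lens epithelium.

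Oxidative phosphorylation takes place in the inner mitochondrial membrane. Complexes I to IV pass electrons from NADH and succinate to oxygen and, except for complex II, pump protons, and complex V (ATP synthase) uses the proton gradient to make ATP. Subunits come from both genomes apart from complex II, which is nuclear. Several complex IV and complex V subunits exist as alternative isoforms encoded by separate genes and used in different tissues. In the lens, mitochondria are kept by the epithelium and the young fiber cells and are lost with the other organelles as fibers mature.

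Sequences are shown first for the isoform pair and the near-identical copies on which several of the values below depend, and for 3 promoters with a motif match. *Cox6a1* (chr5:115345642-115348981, minus strand, GRCm38) and *Cox6a2* (chr7:128205435-128206387, minus strand) encode the broadly used and the striated-muscle form of the same complex IV subunit. Their spliced coding sequences (GENCODE M21 transcripts, without the stop codon) are given from the first aligned base, which is base 46 of *Cox6a1* (291 bases within chr5:115345846-115348905) and base 1 of *Cox6a2* (291 bases within chr7:128205732-128206295). Capitals mark bases identical in the alignment of the pair, in which 285 bases were aligned, 62.5% of them identical, with no shared run longer than 12 bases.

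*Cox6a1*: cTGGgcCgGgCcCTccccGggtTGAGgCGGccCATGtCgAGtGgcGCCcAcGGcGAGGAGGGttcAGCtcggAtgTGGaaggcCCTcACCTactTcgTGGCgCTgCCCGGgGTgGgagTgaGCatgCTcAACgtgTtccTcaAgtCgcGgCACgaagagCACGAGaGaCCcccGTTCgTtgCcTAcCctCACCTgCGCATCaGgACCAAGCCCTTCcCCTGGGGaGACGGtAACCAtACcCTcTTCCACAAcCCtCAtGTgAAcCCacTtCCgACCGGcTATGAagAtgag

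*Cox6a2*: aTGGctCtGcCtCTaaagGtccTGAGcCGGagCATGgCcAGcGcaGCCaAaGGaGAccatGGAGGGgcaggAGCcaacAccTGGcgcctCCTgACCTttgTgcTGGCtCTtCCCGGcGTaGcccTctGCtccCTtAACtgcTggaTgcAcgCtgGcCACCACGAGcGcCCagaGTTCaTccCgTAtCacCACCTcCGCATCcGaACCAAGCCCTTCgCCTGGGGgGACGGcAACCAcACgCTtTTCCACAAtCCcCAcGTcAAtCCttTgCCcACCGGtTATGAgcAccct

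*mt-Nd3*, a complex I subunit of the mitochondrial genome, has a nuclear pseudogene copy, *Gm28438*, that differs by 1 base over 345 aligned bases (99.7% identical). The first 60 bases of the gene (chrM:9459-9518, plus strand) and of the copy (chr1:24613060-24613119, minus strand) are given with the differing base in capitals. The difference is T3C, counted from 1 at the 5′ end of the gene, with the base of *mt-Nd3* first.

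*mt-Nd3*: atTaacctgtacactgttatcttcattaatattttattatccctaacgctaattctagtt

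*Gm28438*: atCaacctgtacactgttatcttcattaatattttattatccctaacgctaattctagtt

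Promoters of nuclear members, from 250 bases before to 50 bases after the annotated start (RefSeq, GRCm38.p6), were available for 68 of 87 symbols. They were searched on both strands for 4 motifs known from mitochondrial genes. CGCANGCG, the inner core of the site of nuclear respiratory factor NRF-1, was found in 26 of the 68 promoters (38.2%) against 9.22% of the promoters of 27025 genes. CCGGAAG, an ETS-type site as bound by the GABP regulator, was in 17 of them against 9.93%, AAGATGGC (YY1) in 10 (14.7%) against 3.19%, and GGGCGG (SP1) in 28 (41.2%) against 38.2%. The *Atp5g3* promoter (chr2:73911277-73911576, minus strand), the *Cox6a1* promoter (chr5:115348909-115349208, minus strand) and the *Ndufa11* promoter (chr17:56717512-56717811, plus strand) are printed because a rising gene, a falling gene with an isoform partner and a strongly falling gene all held an NRF-1 match. Capitals mark NRF-1 and ETS matches. Among the members tested for expression in M/M against wild-type lenses, the NRF-1 match was present in 3 of 6 that rose, 12 of 36 that fell and 11 of 22 that did not pass the test.

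*Atp5g3*: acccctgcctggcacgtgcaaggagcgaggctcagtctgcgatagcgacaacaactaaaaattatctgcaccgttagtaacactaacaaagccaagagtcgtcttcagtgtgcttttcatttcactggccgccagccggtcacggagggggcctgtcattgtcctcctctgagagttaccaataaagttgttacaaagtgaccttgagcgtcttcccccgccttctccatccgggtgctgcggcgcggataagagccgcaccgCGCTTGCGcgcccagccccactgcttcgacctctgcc

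*Cox6a1*: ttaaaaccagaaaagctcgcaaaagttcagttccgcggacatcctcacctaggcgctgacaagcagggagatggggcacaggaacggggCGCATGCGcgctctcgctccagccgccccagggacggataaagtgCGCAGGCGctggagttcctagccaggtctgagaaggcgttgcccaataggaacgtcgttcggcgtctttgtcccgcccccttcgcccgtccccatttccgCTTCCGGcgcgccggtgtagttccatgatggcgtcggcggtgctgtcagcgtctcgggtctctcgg

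*Ndufa11*: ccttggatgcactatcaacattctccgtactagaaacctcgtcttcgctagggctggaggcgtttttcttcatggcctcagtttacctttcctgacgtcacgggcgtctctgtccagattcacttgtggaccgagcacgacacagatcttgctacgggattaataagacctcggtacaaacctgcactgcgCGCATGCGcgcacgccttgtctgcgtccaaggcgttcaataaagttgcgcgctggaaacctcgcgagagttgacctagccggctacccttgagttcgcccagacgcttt

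Of the 101 members, 92 were tested (13 mt- and 79 nuclear), having at least 5 CPM in at least 3 libraries. The 9 others were *Ndufa4l2*, *Cox4i2*, *Cox5b-ps*, *Cox6b2*, *Cox7a1*, *Cox7b2*, *Cox8b*, *Cox8c* and a second *Atp5o* entry (ENSMUSG00000116933), the last 2 with no counted read in any library. *Cox6a2* reached that level only in the I/M and M/M libraries, so it entered the test through the genotypes in which it is high. Counts are also given without it, and its differences from wild-type are given as a description with no p. A gene is said to have risen or fallen where the quasi-likelihood test of edgeR gave an adjusted p (Benjamini-Hochberg, over all 8984 genes tested) of at most 0.05. Log2 fold changes are given with their standard error, and CPM values are scaled by TMM, which sets the typical gene equal between libraries.

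This scaling decides the sign of most changes in M/M lenses. The 16 crystallin genes, which encode the bulk proteins of the lens, summed to 678900 to 771900 CPM in wild-type and 387400 to 419500 CPM in M/M lenses. The TMM factors were 0.828 to 0.905 and 1.22 to 1.27. The sums are already divided by these factors, so they are not shares of reads and overstate the fall in share. When libraries were scaled by their total counts alone, the median over all genes moved from 0.00 to 0.50 (log2) in M/M, 0.20 in I/M and 0.05 in KO against wild-type lenses. Every rise and fall below is therefore a change relative to the typical gene of the same lens. Fewer cells of a type and less RNA per cell cannot be told apart in whole-lens RNA.

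The largest change among the members was that of *Cox6a2*. It was counted at 2.03, 1.68 and 1.74 CPM in the wild-type libraries, 1.18, 1.05 and 1.30 in KO, 23.7, 21.7 and 20.1 in I/M, and 51.5, 64.3 and 78.7 in M/M. The genotypes did not overlap and were ordered KO, wild-type, I/M, M/M. Against wild-type, the log2 fold change was 3.58 ± 0.16 in I/M (11.99-fold) and 5.15 ± 0.16 in M/M (35.6-fold). M/M exceeded I/M lenses by 1.57 ± 0.12 (adjusted p = 2.63e-07). The value in KO against wild-type was -0.63 ± 0.24, which did not pass in edgeR and was called lower by DESeq2.

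*Cox6a1*, the common form, moved the other way in M/M lenses relative to the typical gene. Its levels were 125, 139 and 133 CPM in wild-type, 141, 131 and 130 in KO, 127, 123 and 122 in I/M and 107, 108 and 104 in M/M lenses, a fall of -0.32 ± 0.05 in the last (adjusted p = 8e-05). Per kilobase of transcript, *Cox6a2* made up 1.15% of the pair in wild-type, 0.731% in KO, 12.9% in I/M and 33.7% in M/M lenses. This share does not depend on the scaling between libraries, and wild-type overlapped with no other genotype, given here as a description.

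**Figure D1:**
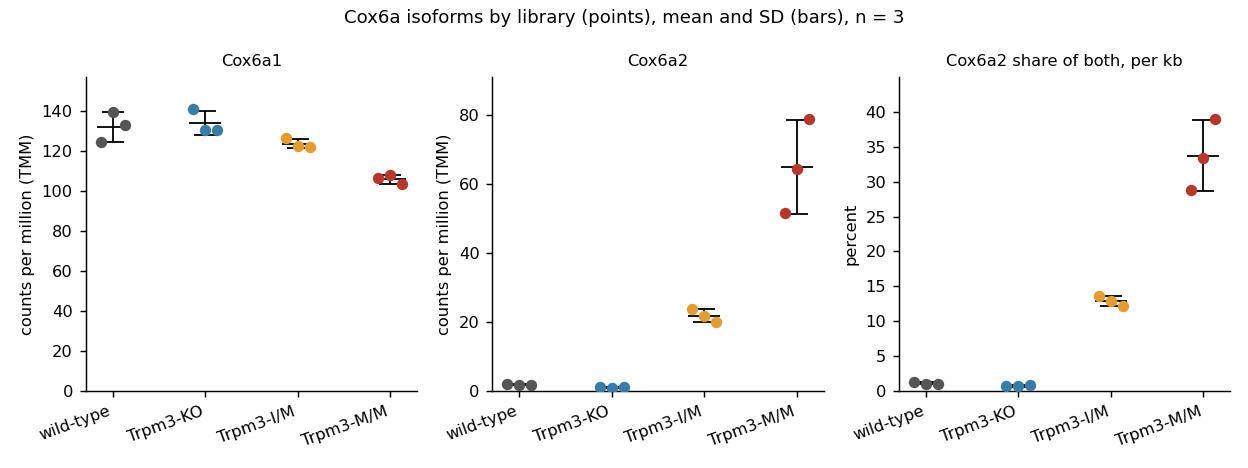
Levels of *Cox6a1* and *Cox6a2* (CPM, TMM-scaled) and the share of *Cox6a2* in the pair per kilobase (percent) in each library. Points are libraries, lines the means and bars the SD of 3 libraries per genotype; *Cox6a2* is 20.1 to 23.7 CPM in I/M and 51.5 to 78.7 CPM in M/M lenses, and under 3 CPM in the other genotypes.

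*Cox6a2* lies within *Itgad* (chr7:128154376-128223816), a gene of the opposite strand that encodes a leukocyte integrin subunit and 4 of its 5 annotated transcripts finish in an exon that covers the last 67 to 70 bases of *Cox6a2*. Reads could not be assigned by strand from what is stated of the counting. *Itgad* held 0, 0 and 0 reads in wild-type, 0, 1 and 0 in KO, 11, 4 and 4 in I/M and 20, 45 and 39 in M/M lenses, or 0.393 CPM on average in the last, against a mean of 64.8 CPM for *Cox6a2*.

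Markers of other tissues were read beside this gene. The 9 striated-muscle markers listed, of which 2 were tested, summed to 31.7 to 37.7 CPM in wild-type and 25.8 to 29.5 CPM in M/M lenses, so that markers of the tissue in which *Cox6a2* is best known were not higher. Nearly all of that sum was *Casq1* and *Actn3*, while *Myl1* had no read in any library. The sums of 10 pericyte and smooth-muscle markers (98.2 to 110 CPM in wild-type, 117 to 141 in I/M, 249 to 338 in M/M), 8 endothelial markers (13.8 to 16.3, 24.7 to 30.6 and 55.3 to 64.5) and 8 macrophage markers (0.297 to 0.511, 0.865 to 1.09 and 9.41 to 19.6) were each higher in I/M than in wild-type and highest in M/M libraries, as *Cox6a2* was. Most of the pericyte and smooth-muscle sum was *Acta2*, at 62.6% to 69.0% of it in wild-type and 68.1% to 75.0% in M/M. Without *Acta2* the sum was 34.0 to 39.8 CPM in wild-type, 34.9 to 44.8 in I/M and 79.2 to 90.9 in M/M, so that I/M overlapped with wild-type, and the pericyte receptor *Notch3* was lower in M/M, at 9.13 to 10.8 against 18.2 to 23.3 CPM. Of the 8 endothelial markers, *Egfl7* alone was lower on average in I/M, at 5.96 to 6.93 against 7.20 to 8.09 CPM in wild-type. The part of these cells in the values of *Cox6a2* was not tested. Sums of 8 photoreceptor markers (0.693 to 0.912 in wild-type, 1.58 to 4.60 in M/M) and 6 red blood cell markers (1.22 to 12.04 and 12.4 to 15.0) were also higher. The sums of the lens's own markers were lower in M/M, at 32930 to 35150 and 17320 to 20010 CPM for 9 fiber markers and 655 to 693 and 556 to 588 CPM for 7 epithelial markers. Of the 7, 4 fell and 2 rose, the latter *Npnt* (92.4 to 95.7 CPM in wild-type, 119 to 135 in M/M) and *Cdh2* (240 to 253 and 264 to 291). Lens markers thus led in every library.

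Other alternative isoforms were rare. *Cox6b1*, the common partner of the testis form *Cox6b2*, was at 65.1 to 68.8 CPM on average in the 4 genotypes and did not pass in M/M lenses (-0.08 ± 0.06, adjusted p = 0.279). *Cox7a2*, the general form beside the muscle form *Cox7a1*, fell in M/M (-0.40 ± 0.06, adjusted p = 4.1e-05) and in I/M lenses (-0.20 ± 0.06, adjusted p = 0.0171), the latter call being lost without I/M replicate 2 or 3 or wild-type replicate 2. *Cox7a1* was between 0.130 and 0.429 CPM throughout. *Cox7a2l*, which takes part in assembling respiratory supercomplexes, had values of -0.06 in M/M and -0.07 in I/M lenses and did not pass. *Cox8a* fell in M/M lenses (-0.29 ± 0.05, adjusted p = 2.36e-04), with its muscle form *Cox8b* at no more than 0.0868 CPM. *Cox7b* (-0.10, adjusted p = 0.127) did not pass in M/M lenses, and *Cox7b2* had at most 3 reads in a library.

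*Ndufa4*, a subunit associated with complex IV, and *Cox4i1*, the general form of the largest nuclear complex IV subunit, both fell in M/M lenses, by -0.25 ± 0.06 (adjusted p = 0.00265) and -0.29 ± 0.05 (adjusted p = 2.79e-04). Their partners *Ndufa4l2* and *Cox4i2*, which are both known to respond to low oxygen and to be expressed in pericytes, stayed under the level required for testing. *Ndufa4l2* was at 0.197, 0.210 and 0.218 CPM in wild-type and 2.21, 5.31 and 3.19 CPM in M/M lenses. As a share of the pair per kilobase, *Ndufa4l2* went from 0.277% to 5.29% and *Cox4i2* from 0.188% to 0.876%, both without overlap. *Epas1*, an oxygen-regulated transcription factor abundant in endothelium, went from 0.210 to 0.555 CPM in wild-type to 16.2 to 18.3 CPM in M/M lenses (log2 fold change 5.45 ± 0.34), beside the pericyte and endothelial sums above. It reached the level required for testing only in the M/M libraries, so no p is given.

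The c subunit of ATP synthase, which forms its rotating ring, is made from 3 genes encoding the same mature protein. *Atp5g3* was at 51.3, 51.7 and 53.6 CPM in wild-type, 52.3, 52.3 and 48.7 in KO, 72.6, 70.5 and 70.4 in I/M and 73.1, 77.0 and 74.4 in M/M lenses. Both mutant genotypes lay above wild-type without overlap, by 0.45 ± 0.04 in I/M (adjusted p = 4.27e-06) and 0.52 ± 0.04 in M/M (adjusted p = 2.46e-07), and the difference between them did not pass (0.07 ± 0.04, adjusted p = 0.173). *Atp5g1* fell in M/M lenses (-0.21 ± 0.06, adjusted p = 0.0106), a call lost without M/M replicate 1 (-0.13, adjusted p = 0.0848) or wild-type replicate 2 (-0.15, adjusted p = 0.0524), and *Atp5g2* did not pass (0.14 ± 0.11, adjusted p = 0.27). Per kilobase, *Atp5g3* made up 79.5% of the 3 genes in wild-type and 85.0% in M/M lenses.

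Relative to the typical gene, nuclear members fell more often than they rose in M/M lenses. Of 79 tested, 12 rose and 42 fell against wild-type (11 and 42 of 78 without *Cox6a2*), where 31.4% of all genes rose and 31.4% fell. The median log2 fold change was -0.17 over the nuclear members and 0.00 over all genes. *Cox6a2* was the only nuclear member with a change of at least 2-fold, against 6.42% of all genes higher and 2.53% lower by that much. On the scale of total counts, 40 of the 42 lay above 0 and the counts became 69 higher and 1 lower (87.3% higher, where 82.0% of all genes were higher and 5.51% lower), while the median of the members stayed 0.16 below that of all genes. Leaving out each library in turn gave 9 to 14 higher and 35 to 43 lower, and 9 of the 12 and 34 of the 42 calls were kept in every such fit.

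**Figure D2:**
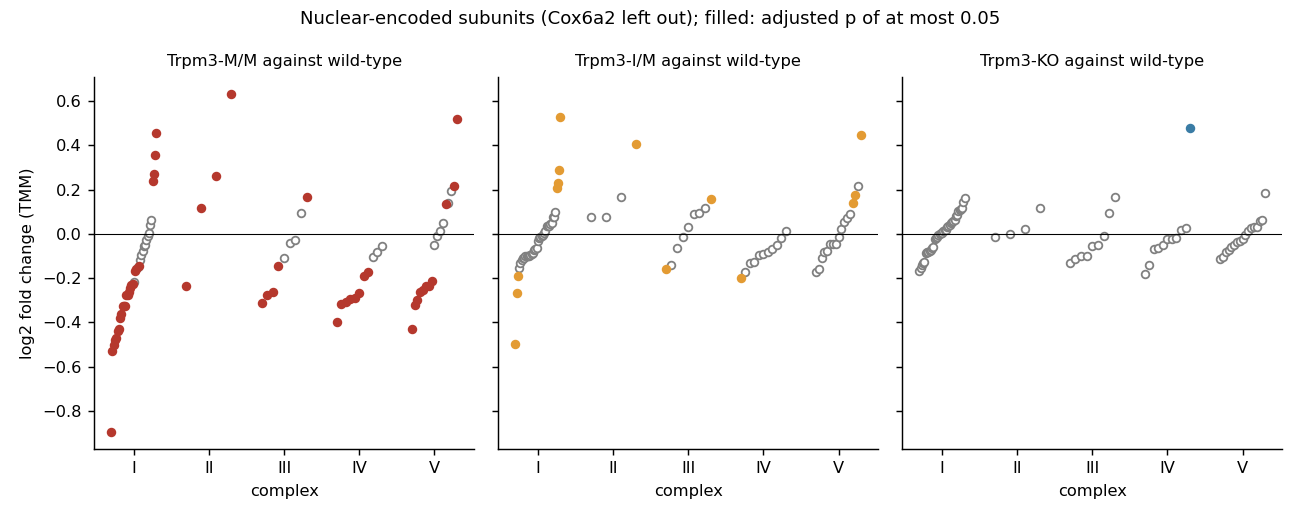
Log2 fold changes of 78 nuclear subunits by complex in M/M, I/M and KO against wild-type lenses (TMM scaling, *Cox6a2* left out). Each point is a gene, filled where the adjusted p was at most 0.05; in M/M lenses 42 of the genes were lower and 11 higher relative to the typical gene, and 40 of those 42 lie above 0 when libraries are scaled by total counts alone.

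Complex I, the NADH dehydrogenase, had 21 of 37 tested nuclear subunits lower and 4 higher in M/M lenses. The background for this and every complex below is 31.4% of all genes lower and 31.4% higher. Its 7 nuclear core subunits, the ones that carry the flavin and the iron-sulfur clusters or bind quinone (a grouping made after the values were seen), split into 2 higher and 3 lower, and the 30 accessory subunits into 2 higher and 18 lower. *Ndufa1*, a small accessory subunit of the membrane arm needed for assembly, fell most. It was at 102, 122 and 111 CPM in wild-type, 123, 127 and 112 in KO, 75.9, 79.8 and 81.4 in I/M and 55.2, 59.9 and 65.1 in M/M lenses. Both mutant genotypes were below the others and did not overlap with each other. The change was -0.50 ± 0.07 in I/M (adjusted p = 1.86e-04), -0.89 ± 0.07 in M/M (1.86-fold lower, adjusted p = 2.41e-07) and -0.39 ± 0.07 between the mutant genotypes (adjusted p = 6.24e-04).

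The accessory subunits *Ndufa3*, *Ndufa11* and *Ndufc1* and *Ndufs4*, a subunit near the NADH-oxidizing module, followed in M/M lenses. *Ndufa3* was at 33.6, 34.7 and 33.4 CPM in wild-type, 29.1, 28.1 and 27.3 in I/M and 22.1, 24.5 and 23.9 in M/M lenses (-0.53 ± 0.05, adjusted p = 5.06e-07), a stepwise order without overlap. *Ndufs4* went from 24.0, 26.4 and 26.6 CPM to 17.8, 18.3 and 18.2 CPM (-0.50 ± 0.05, adjusted p = 5.7e-07), with I/M near wild-type at 23.5 to 24.6 CPM. *Ndufa11* (-0.48 ± 0.06, adjusted p = 7.23e-06) and *Ndufc1* (-0.47 ± 0.06, adjusted p = 2.74e-05) fell in M/M lenses by nearly as much. The most abundant nuclear complex I gene, *Ndufa13*, did not pass in any comparison with wild-type (-0.05 ± 0.06 in M/M, adjusted p = 0.524).

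The core subunit *Ndufs1*, which holds several iron-sulfur clusters, went from 16.9, 17.98 and 16.5 CPM in wild-type to 21.9, 20.2 and 20.8 in I/M (0.29 ± 0.05, adjusted p = 7.06e-04) and 23.2, 23.9 and 23.3 in M/M lenses (0.45 ± 0.05, adjusted p = 3.78e-06). Both mutant genotypes lay above wild-type, and M/M lay above I/M by 0.16 ± 0.05 (adjusted p = 0.0124, lost without I/M replicate 2). *Ndufs3* (-0.28, adjusted p = 1.22e-04), another core subunit, fell in M/M lenses.

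Complex II, succinate dehydrogenase, split by subunit. *Sdhc*, one of its membrane anchors, was at 12.9, 13.3 and 12.3 CPM in wild-type, 13.6, 13.8 and 14.3 in KO, 17.0, 17.2 and 16.8 in I/M and 18.5, 21.3 and 19.8 in M/M lenses. It rose by 0.41 ± 0.06 in I/M (adjusted p = 9.29e-05) and 0.63 ± 0.05 in M/M lenses (adjusted p = 3.55e-07). The other anchor *Sdhd* (0.26, adjusted p = 0.00707) and the flavoprotein *Sdha* (0.12, adjusted p = 0.0285) also rose in M/M lenses, the call of *Sdha* being lost without wild-type replicate 1 (0.08, adjusted p = 0.128). The iron-sulfur subunit *Sdhb*, the most abundant of the 4, fell in M/M lenses, from 96.1, 101 and 97.0 CPM to 84.8, 81.6 and 83.4 CPM (-0.24 ± 0.04, adjusted p = 1.75e-04).

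Complex III had 1 of 9 subunits higher and 4 lower in M/M lenses. The Rieske iron-sulfur protein *Uqcrfs1* rose (0.17, adjusted p = 0.0165), and the hinge protein *Uqcrh* (-0.31), the small subunits *Uqcr10* (-0.28) and *Uqcr11* (-0.26), and cytochrome c1 *Cyc1* (-0.14) fell. The call of *Uqcrfs1* was lost without wild-type replicate 1 and that of *Cyc1* without wild-type replicate 2 or any M/M library. *Uqcrc1*, a core subunit and the most abundant, did not pass (-0.11 ± 0.05, adjusted p = 0.0812). In complex IV, 8 of 12 subunits fell in M/M lenses and *Cox6a2* alone rose. *Cox4i1*, the most abundant, was at 179, 197 and 185 CPM in wild-type and 148, 157 and 154 CPM in M/M lenses, and the other members that fell there lay between -0.17 (*Cox5b*) and -0.40 (*Cox7a2*).

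In complex V, 3 of 17 subunits rose and 8 fell in M/M lenses. The genes of the catalytic head went apart: *Atp5b* (beta), the most abundant nuclear member, was at 661, 705 and 704 CPM in wild-type, 687, 684 and 682 in I/M and 560, 550 and 546 in M/M lenses (-0.32 ± 0.04 in the last, adjusted p = 1.32e-05), while *Atp5a1* (alpha) rose by 0.13 (adjusted p = 0.0136, lost without wild-type replicate 1). *Atp5g3* and the small membrane subunit *Atp5mpl* (0.21, adjusted p = 0.00177) were the other members that rose. The ATP synthase inhibitor *Atpif1*, not a member by the rule, also rose in M/M lenses (0.23 ± 0.08, adjusted p = 0.0247). Its libraries overlapped (33.8 to 37.9 CPM in wild-type, 36.8 to 46.3 in M/M), and the call was lost without M/M replicate 3 or wild-type replicate 1 or 3.

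I/M lenses showed fewer changes. Of 79 nuclear members, 10 rose and 5 fell (9 and 5 of 78 without *Cox6a2*), where 17.3% of all genes rose and 15.3% fell, and the median was -0.02. The members that rose included *Cox6a2*, *Atp5g3*, *Sdhc*, *Ndufs1*, *Ndufc2*, *Ndufb3*, *Atp5mpl*, *Uqcrfs1* and *Atp5a1*. Those that fell were *Ndufa1*, *Ndufa3*, *Cox7a2*, *Ndufa11* and *Uqcrh*, and 3 of these 5 lay above 0 when scaled by total counts. The number that fell depended on single libraries: it was 13 without wild-type replicate 1, 9 without M/M replicate 1, 2 without wild-type replicate 2 or I/M replicate 2, and 3 without I/M replicate 3, and the number that rose was 6 without wild-type replicate 1. Of the 10 calls 6, and of the 5 calls 2, were kept whichever library was left out.

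The mutant genotypes were compared with each other directly. In M/M against I/M lenses, 3 nuclear members were higher and 41 lower (2 and 41 of 78 without *Cox6a2*), where 25.6% of all genes were higher and 25.7% lower. The 3 were *Cox6a2*, *Sdhc* and *Ndufs1*. *Atp5b* (-0.31, adjusted p = 3.67e-05), *Sdhb* (-0.31, adjusted p = 2.98e-05), *Ndufs4* (-0.40, adjusted p = 9e-06) and *Ndufc1* (-0.37, adjusted p = 3.36e-04) were lower in M/M lenses and had not passed between I/M and wild-type lenses. Without M/M replicate 1 the number lower was 25, and 20 of the 41 calls were kept whichever library was left out. Scaled by total counts, 34 of the 41 lay above 0, and 49 were called higher (62.0%) and 0 lower, where 70.4% of all genes were higher and 5.43% lower.

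In KO lenses 1 nuclear member was higher and 0 lower, where 2.16% of all genes were higher and 2.2% lower. At an unadjusted p under 0.05, 9 members were lower, a rule for which no share of all genes was computed. DESeq2 called 3 lower, where it called 293 of all 8984 genes lower. The member that rose was *Cox5b*, a peripheral zinc-binding subunit of complex IV. It was at 76.6, 82.9 and 79.96 CPM in wild-type, 118, 110 and 105 in KO, 82.7, 78.4 and 80.9 in I/M and 67.2, 69.6 and 75.9 in M/M lenses. KO alone stood above wild-type, by 0.48 ± 0.06 (1.39-fold, adjusted p = 2.01e-04), and M/M lay below KO by -0.65 ± 0.06 (adjusted p = 3.83e-07). The small fall in M/M against wild-type (-0.17 ± 0.06, adjusted p = 0.0184) was lost without M/M replicate 1, M/M replicate 2 or wild-type replicate 2. *Cox5b-ps*, a copy that could share reads, was at 0.472 to 0.868 CPM. Against KO, M/M lenses had 10 nuclear members higher and 39 lower (9 and 39 of 78 without *Cox6a2*), where 32.3% of all genes were higher and 32.4% lower. *Ndufa1* was lower there by 2.01-fold (-1.01 ± 0.07, adjusted p = 7.4e-08).

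Few of the 13 protein-coding genes of the mitochondrial genome passed the test. Against wild-type, 0 were higher and 1 lower in M/M, 0 and 1 in I/M, and 0 and 0 in KO lenses. Of all genes tested, 31.4% were higher and 31.4% lower in M/M, 17.3% and 15.3% in I/M, and 2.16% and 2.2% in KO lenses. In I/M lenses all 13 lay below 0 (median -0.17, or 0.03 when scaled by total counts), and 6 were lower than wild-type in every library, where 21.5% of all genes were. One of the 6 was *mt-Nd2*, at 706, 707 and 693 CPM in wild-type and 537, 589 and 616 CPM in I/M lenses (-0.27 ± 0.14, adjusted p = 0.165). At an unadjusted p under 0.05 and by DESeq2, 0 were higher in either mutant genotype, and in KO lenses 2 were higher unadjusted and 0 by DESeq2, with 0 lower by both. By DESeq2, 2791 of all 8984 genes were higher in M/M, 1514 in I/M and 261 in KO lenses, and 293 were lower in KO. No share of all genes was computed for the unadjusted rule. M/M against I/M lenses gave 0 higher and 0 lower, where 25.6% of all genes were higher and 25.7% lower (1 and 0 members at an unadjusted p under 0.05, 0 and 0 by DESeq2). DESeq2 called 2321 of all 8984 genes higher and 2260 lower in that comparison. Scaled by total counts, 12 were higher in M/M than in wild-type (92.3%, against 82.0% of all genes) and 0 lower. In I/M lenses 0 were higher and 0 lower on that scale, where 51.9% of all genes were higher.

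The gene that fell was *mt-Nd3*. It was at 96.1, 109 and 114 CPM in wild-type, 91.2, 108 and 90.3 in KO, 94.0, 83.2 and 90.0 in I/M and 72.1, 75.7 and 87.7 in M/M lenses. Both mutant genotypes lay below wild-type without overlap, by -0.26 ± 0.09 in I/M (adjusted p = 0.0441) and -0.44 ± 0.09 in M/M (adjusted p = 8.72e-04), and the difference between them did not pass (-0.18 ± 0.09, adjusted p = 0.11). The I/M call was lost without I/M replicate 2 or 3, wild-type replicate 2 or 3 or M/M replicate 2. Without M/M replicate 3, 6 mt- genes were lower in M/M lenses (*mt-Nd2*, *mt-Nd3*, *mt-Nd4*, *mt-Nd4l*, *mt-Cytb* and *mt-Atp6*).

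That library was the highest of its group for mt- genes, as KO replicate 2 was of the KO libraries, and these are the libraries whose column names carry an additional letter c, explained in no source used here. The median of the mt- genes in KO against wild-type lenses was 0.16 with KO replicate 2 and 0.05 without it. The complex I gene *mt-Nd1* was at 842, 795 and 814 CPM in wild-type, 673, 771 and 822 in I/M and 825, 797 and 1229 in M/M lenses (0.22 ± 0.15, adjusted p = 0.206). The complex IV gene *mt-Co1*, the most abundant, averaged 2249 CPM in wild-type, 2868 in KO, 2026 in I/M and 2152 in M/M lenses, and M/M lay below KO (-0.41 ± 0.13, adjusted p = 0.0137, with overlapping libraries). *mt-Co2* (-0.33 ± 0.11, adjusted p = 0.0208) and *mt-Nd3* (-0.30 ± 0.09, adjusted p = 0.0108) were also lower in M/M than in KO lenses. These 3 calls were each lost without KO replicate 2, M/M replicate 1 or M/M replicate 2. The remaining values in M/M against wild-type lenses, none of which passed, lay between -0.16 (*mt-Nd4l*) and -0.01 (*mt-Co3*).

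**Figure D3:**
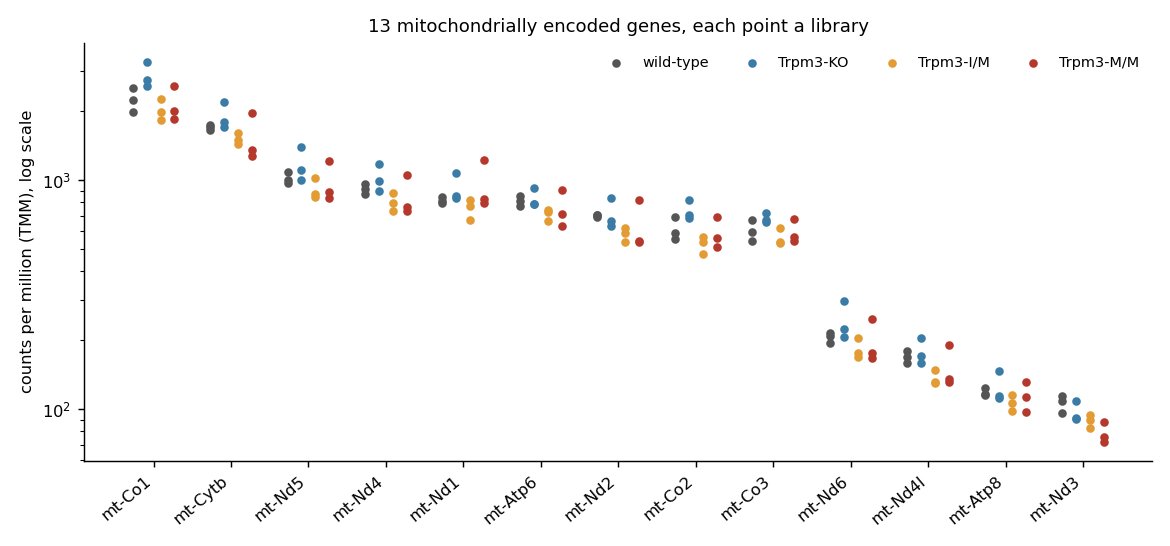
Levels of the 13 mt- protein-coding genes (CPM, TMM-scaled, log axis) with 1 point per library and the genotypes side by side. The points of the genotypes overlap for most genes; *mt-Nd3* is 96.1 to 114 CPM in wild-type and 72.1 to 87.7 CPM in M/M lenses, and when libraries are scaled by total counts alone 12 of the genes are higher in M/M lenses.

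Near-identical nuclear copies of mt- genes took part of their reads. The copies on chromosome 1 held between 1.90% (*Gm28439* beside *mt-Nd4*) and 44.3% (*Gm28661* beside *mt-Co2*) of the reads of a gene and its copy, and *Gm28438* held 18.1% to 23.7% beside *mt-Nd3*. How such reads were divided is set by the counting, so the level of a single mt- gene is uncertain. With the reads of each copy added back, the change of *mt-Nd3* was -0.46 in M/M (adjusted p = 7.19e-04) and -0.28 in I/M lenses (adjusted p = 0.0345).

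Shares of all counted reads do not use the scaling of single genes. Nuclear members held 0.452%, 0.453% and 0.473% of counted reads in wild-type, 0.471%, 0.473% and 0.474% in KO, 0.535%, 0.513% and 0.519% in I/M, and 0.557%, 0.597% and 0.610% in M/M lenses. Both mutant genotypes lay above wild-type (exact permutation test, two-sided, p = 0.1, the smallest possible with 3 against 3 libraries). Outside the crystallin reads the shares were 1.17%, 1.26% and 1.21% in wild-type and 1.14%, 1.22% and 1.20% in M/M lenses, which overlapped (exact permutation p = 0.5). The mt- genes held 0.880% of counted reads on average in wild-type, 1.04% in KO, 0.897% in I/M and 1.20% in M/M lenses. M/M replicate 3 had the highest share, the other M/M libraries being at 1.06% and 1.02%. Outside the crystallin reads their shares were 2.51%, 2.29% and 2.17% in wild-type and 2.18%, 2.09% and 2.97% in M/M lenses, which overlapped (exact permutation p = 0.9).

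The ratio of mt- to nuclear member reads was 2.14, 1.82 and 1.79 in wild-type, 1.94, 2.53 and 2.14 in KO, 1.55, 1.72 and 1.89 in I/M, and 1.91, 1.72 and 2.47 in M/M lenses. All genotypes overlapped with wild-type (exact permutation p = 0.2, 0.3 and 0.7 for KO, I/M and M/M). A difference in the balance of the 2 genomes was not detectable with 3 libraries a genotype. Without M/M replicate 3 the mean ratio in M/M was 0.945 times that of wild-type, against 1.06 times with it.

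**Figure D4:**
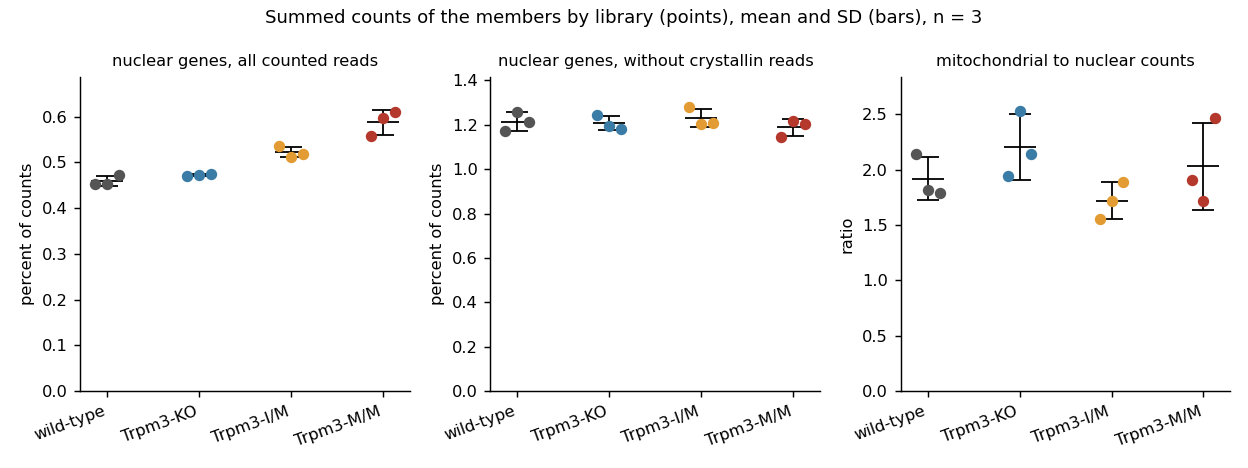
Share of nuclear members in all counted reads (percent), their share outside crystallin reads (percent), and the ratio of mt- to nuclear member reads, by library. Points are libraries, lines the means and bars the SD of 3 libraries per genotype; the first measure is above wild-type in both mutant genotypes, and the other measures overlap.

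Among nuclear members, the change in the mutant lenses went with the length of the transcript. Over the 79 tested members, Spearman's rho between log2 fold change and principal transcript length was 0.48 in M/M, 0.52 in I/M and 0.15 in KO lenses, as a description across genes that share the same libraries. The median transcript length was 680 bases for members that fell in M/M lenses, 1297 for those that rose and 1166 for the rest. With coding length the values were 0.30, 0.43 and 0.10, against 0.06, -0.03 and 0.17 over 8638 protein-coding genes tested. For transcript length no value over all genes was computed, so whether that relation is particular to the members is not known. Among members with coding lengths of 156 to 324 bases, 17 of 26 fell in M/M lenses, among those of 333 to 516 bases 13 of 26, and among those of 525 to 2181 bases 11 of 26, while all protein-coding genes in these ranges fell in 36.0%, 35.2% and 31.8%. The part of RNA integrity or library preparation in this relation was not tested.

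**Figure D5:**
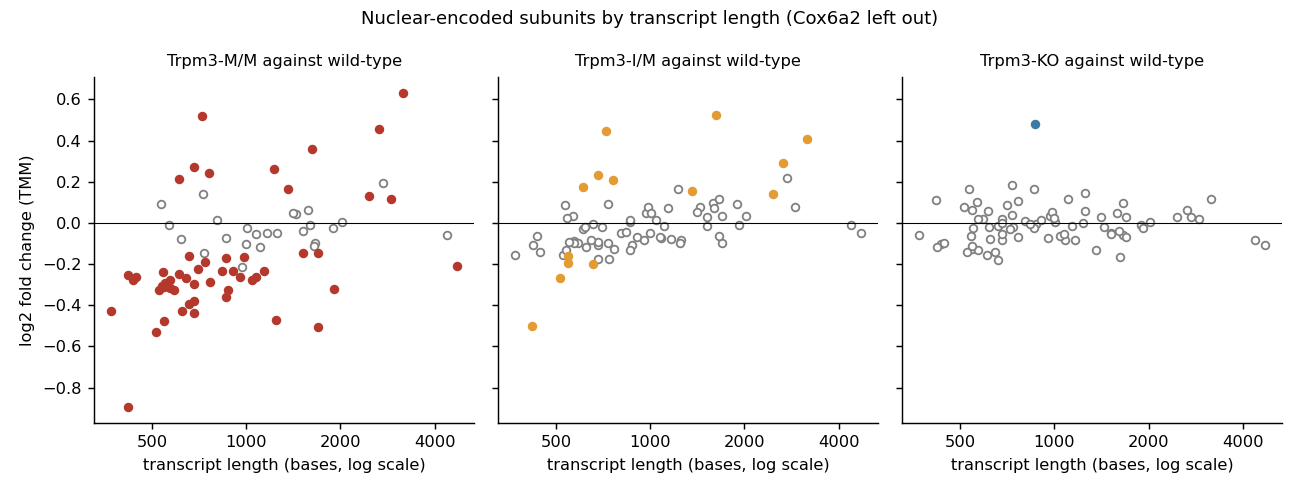
Log2 fold change (TMM scaling) of 78 nuclear members, without *Cox6a2*, against the length of the principal transcript in bases (log axis), in 3 comparisons with wild-type. Each point is a gene; in M/M lenses the genes that fell have a median length of 680 bases and those that rose, *Cox6a2* counted, one of 1297 bases, directions that are relative to the typical gene.

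Other mitochondrial gene groups were read from lists beside the members, all in M/M against wild-type lenses and against the same background of 31.4% higher and 31.4% lower, with directions again relative to the typical gene. Of 73 mitochondrial ribosomal proteins tested, which translate the mt- messages, 4 rose and 30 fell, led by *Mrps26* (-1.02 ± 0.11, adjusted p = 2.14e-06) and *Mrpl46* (-0.49) on the falling and *Mrpl35* (0.26, lost without M/M replicate 3 or wild-type replicate 1) and *Mrpl34* (0.20) on the rising side. In I/M lenses 5 of the 73 rose and 3 fell, where 17.3% of all genes rose and 15.3% fell. Of the 73, 4 were tested only through mutant libraries. Without them, 4 of 69 rose and 29 fell in M/M, and 5 and 3 in I/M lenses. Of 34 assembly factors, 3 rose and 9 fell, with *Tmem177* (-0.91 ± 0.08, adjusted p = 2.95e-07) and *Coa5* (-0.66 ± 0.04, adjusted p = 1.24e-08), both of complex IV assembly, falling most and *Pet100* (0.39) and *Tmem70* (0.30) rising. Of these 34, 4 were tested only through mutant libraries, *Tmem70* among them, and without them 2 of 30 rose and 9 fell. Of 17 genes that copy, transcribe and process the mitochondrial genome, 4 rose, among them the RNA polymerase *Polrmt* (0.28) and the DNA polymerase *Polg* (0.24, lost without wild-type replicate 3), and 4 fell, among them the topoisomerase *Top1mt* (-0.64) and *Hsd17b10* (-0.48), a subunit of mitochondrial RNase P. Without *Mterf3*, which was tested only through the M/M libraries, 4 of 16 rose and 4 fell.

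Of 14 nuclear regulators of mitochondrial genes, 4 rose and 4 fell, and without the 3 that were tested only through mutant libraries 1 of 11 rose and 4 fell. *Epas1* and *Esrra* (0.54 ± 0.15), which had the largest rises, are among those 3 and are given with no p, and *Gabpa* (-0.39 ± 0.05, adjusted p = 7.56e-06), the DNA-binding subunit of GABP, and *Ppard* (-0.35) fell most. Of 9 genes of coenzyme Q and electron carriers, 2 rose (*Etfdh*, 0.45, and cytochrome c *Cycs*, 0.25) and 3 fell, including *Coq9* (-0.36) and *Coq5* (-0.34). Without *Coq10a*, which was tested only through the M/M libraries, 2 of 8 rose and 3 fell. Pyruvate dehydrogenase and the citric acid cycle, which feed the chain, had 6 of 17 genes higher and 4 lower, with *Pdha1* and *Sucla2* (0.43 each) and *Suclg2* (-0.39) and *Idh3g* (-0.24) at the ends. Of 12 carriers, 5 rose and 4 fell (4 and 4 of 11 without *Ucp2*, which was tested only through the M/M libraries). The uncoupling protein *Ucp2*, which is common in immune cells, went from 2.22 to 2.90 CPM in wild-type to 8.68 to 10.7 CPM in M/M (1.87 ± 0.14), beside the macrophage sum above. The outer-membrane channel *Vdac1* (0.34) rose, and the calcium uniporter pore *Mcu* (-0.21, adjusted p = 0.0424) fell, a call lost without wild-type replicate 1 or 3, I/M replicate 3 or any M/M library (adjusted p up to 0.188). Of 20 import and membrane-shape genes, 4 rose and 6 fell, with *Timm17b* (0.37), *Opa1* (0.28), *Hspe1* (-0.44) and *Phb* (-0.36) named by the same rule. In KO lenses, the 8 lists together had 2 of 196 genes higher and 2 lower (1.02% each, where 2.16% of all genes were higher and 2.2% lower).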

How the data were processed

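RNA was measured by RNA-seq in 12 lens libraries, 3 per genotype. Per the methods of the study, the authors demultiplexed reads with bcl2fastq2, aligned and quantified them with DRAGEN against the Ensembl primary assembly (mm10), and deposited a table of estimated counts per gene (expected counts, not normalized), 88.4% of which are whole numbers. The design had assumed whole counts, so values were rounded. The table has 55774 rows, and each of the 168 identifiers listed more than once, with the same values, was kept once. The authors also deposited a table with CPM, fold changes and p-values of their own edgeR comparisons, which was not used here. Whether counting used strand is not given in the sources used here.

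Genotypes and replicate numbers came from the sample titles, and 2 column names (M/M replicate 3 and KO replicate 2) carry an unexplained letter c. Genes with at least 5 CPM in at least 3 libraries were kept (8984). edgeR 4.0.16 in R 4.3.3 was run on all 12 libraries with TMM factors, a term for genotype only and its quasi-likelihood test. Adjusted p-values are Benjamini-Hochberg values over all genes tested. Depth (56162169 to 82090198 counted reads) gave each member tested at least 58 reads in every library, and errors are the spread over 3 pools per genotype. Transcript lengths, coordinates and coding sequences came from GENCODE M21 (GRCm38) and promoters from RefSeq (GRCm38.p6). Sequences were aligned with Biopython 1.88. Copies of mt- genes were pseudogenes with at least 95% identity over at least 100 bases. Sums and ratios over libraries were compared with exact permutation tests in scipy 1.17.1, each over 5 comparisons whose adjusted values were 0.1 or higher. The test was checked on simulated data with known changes in a small part of the genes. No crystallin shift was simulated, so the check does not cover the effect of scaling in M/M lenses.

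The members and gene lists were chosen with earlier results of these data known. Genes named were all mt- genes, the most abundant nuclear member of each complex, isoform families, members changed at least 2-fold, the 5 largest rises and falls in each comparison, and the 2 largest rises and falls of each list, of which a few are not reported here. *Ndufs3*, *Sdha*, *Sdhd*, *Atp5a1*, *Atp5mpl*, *Cyc1* and the other *Uqcr* genes named were added after their values were seen, as were *Itgad* and the marker genes named singly. Alternatives were DESeq2 1.42.0, other scalings and filters, fits of 2 genotypes, merged copies, a replicate block and leaving out each library. Same-numbered libraries did not deviate together, so the numbers were not used as pairs.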

Additional observations from a re-analysis of the deposited data

Results flagged for a closer look

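Members below the level required for testing were looked at in a fit that kept all genes with counts, outside the comparisons of the report, and 3 of them differed from wild-type lenses there at an adjusted p of at most 0.05 (edgeR's quasi-likelihood test without the filter). In that fit, 5133 of all 32253 genes were higher and 4190 lower in M/M lenses, and 2499 and 1701 in I/M lenses. *Ndufa4l2* was higher in M/M lenses by 4.08 ± 0.23 on the log2 scale (adjusted p = 2.72e-66), with libraries at 2.21 to 5.31 CPM against 0.197 to 0.218 CPM in wild-type. In I/M lenses it was higher by 1.03 ± 0.30 (adjusted p = 0.00578), at 0.332 to 0.512 CPM. *Cox4i2* was higher in M/M lenses by 1.93 ± 0.26 (adjusted p = 2.87e-12), at 1.06 to 1.60 CPM against 0.238 to 0.413 CPM. *Cox6b2*, known as the testis form of its subunit, was higher by 1.09 ± 0.16 in I/M (adjusted p = 7.17e-10, 2.16 to 3.32 CPM against 1.06 to 1.55 CPM) and by 0.774 ± 0.16 in M/M lenses (adjusted p = 1.65e-05, 2.04 to 2.29 CPM). Comparisons were listed only where every library lay above all wild-type libraries, so this direction and the lack of overlap were set by the choice and add no evidence. The pericyte and endothelial marker sums were higher in the same genotypes, but without *Acta2* the pericyte sum in I/M overlapped with wild-type. The part of these cells in the values was not tested. Groups of 3 libraries were not examined for outlying values.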

How the results depend on the processing

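The scaling moved the counts most. With library size only, 69 nuclear members were higher and 1 lower in M/M against wild-type (87.3% higher, against 82.0% of all genes). In I/M lenses 44 were higher and 1 lower (55.7% higher, against 51.9%). M/M against I/M gave 49 and 0 (62.0% higher, against 70.4%). Of the 13 mt- genes, 12 were higher and 0 lower in M/M, 0 and 0 in I/M, and 12 and 0 in M/M against I/M. The same shares of all genes stand beside these counts. The shift of the counts follows from the construction of that scaling, since the median of all genes shifts with it. Without a filter, mt- genes were 1 higher and 4 lower in M/M, 6 lower in I/M and 4 higher in KO; nuclear members were 3 lower in I/M and 1 lower in KO; and M/M against I/M had 5 nuclear and 1 mt- gene higher and 1 mt- gene lower. For nuclear members lower in I/M, DESeq2 gave 9, the fit of only those 2 genotypes 9, and TMM without crystallins and upper-quartile scaling 8 each. DESeq2 gave 2 and the fit of 2 genotypes 5 mt- genes lower there, and DESeq2 gave 3 nuclear members lower in KO. Of all 8984 genes, DESeq2 called 1405 lower in I/M and 293 in KO, and the fit of 2 genotypes 1247 in I/M. A minimum of 1 CPM gave 5 nuclear members higher in M/M against I/M. The cause of these shifts was not tested. Same-numbered libraries correlated at -0.264 to 0.149 (2 of 18 pairs above 0.1); with the replicate block 0 mt- genes were lower in I/M, and no other count moved by over 1.5 times.

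Leaving out each library in turn gave, for nuclear members higher and lower, 9 to 14 and 35 to 43 in M/M, 6 to 11 and 2 to 13 in I/M, 1 to 2 and 0 to 2 in KO, and 2 to 4 and 25 to 42 in M/M against I/M. For mt- genes it gave 1 to 6 lower in M/M (6 without M/M replicate 3), 0 to 3 lower in I/M (3 without M/M replicate 3), and 0 to 1 higher and 0 to 1 lower in M/M against I/M. No gene that passed the test reversed its direction relative to each fit's median over all genes, among those named. The untested median of the mt- genes less that of all genes did change sign: in M/M against I/M lenses it was 0.09, and -0.06 without M/M replicate 3, and in M/M against wild-type lenses -0.07, and 0.05 without M/M replicate 2.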
